A study of Homo sapiens with 6 samples.

Results

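The 50 genes described here encode the machinery that copies DNA in S phase, from the proteins that license replication origins to the enzymes that supply deoxynucleotides. They were taken by symbol for their known roles, with earlier results of these data known, and were grouped by the step at which each acts. All 50 were found among the 60612 Ensembl gene identifiers counted in each library, and all 50 were among the 17854 genes that passed the filter on low counts. RNA was sequenced from SKBR3, a human epithelial line from HER2-positive breast cancer, in a series on chromatin and lipid metabolism during adaptation to trastuzumab, an antibody against HER2. The trastuzumab group held 3 libraries of SKBR3 exposed to rising concentrations of the antibody over 30 weeks, and the parental group held 3 libraries of SKBR3 with no treatment. Whether the antibody was still present at harvest is not stated, and both groups come from the same line. Nothing in the labels says that replicates came from separate cultures, so p-values measure only the spread between these libraries, which may be technical.

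Replication is prepared in G1, when the origin recognition complex, CDC6 and CDT1 load the MCM2 to MCM7 helicase onto DNA, a step that is called licensing and that geminin blocks once S phase has begun. At the onset of S phase the CDC7 kinase with its partner DBF4 phosphorylates the loaded helicase, which then binds CDC45 and the GINS complex and starts to unwind DNA. Polymerase alpha with primase lays down primers, replication factor C loads the PCNA clamp, polymerases delta and epsilon extend the strands, and FEN1 and DNA ligase 1 join the fragments of the lagging strand. Many of these genes are transcribed at the passage from G1 to S under E2F factors, which RB1 holds back, and loss of HER2 signalling is known to slow that passage in HER2-amplified cells.

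Depth ranged from 71015138 to 82857810 counts per library. The 7 epithelial and HER2-amplicon markers examined (ERBB2, EPCAM, KRT7, KRT8, KRT18, KRT19 and GRB7) summed to 23671 to 25464 CPM (counts per M of the scaled library total) in the trastuzumab libraries and to 20211 to 21969 CPM in the parental libraries. ERBB2 made up the largest share, at 10865 to 11333 CPM under trastuzumab and 7562 to 8148 CPM in parental cells, while EPCAM (157 to 165 CPM under trastuzumab, 179 to 191 CPM in parental cells) and KRT8 (4679 to 5188 CPM under trastuzumab, 5201 to 6031 CPM in parental cells) were lower in every trastuzumab library. The endothelial markers PECAM1, VWF and CDH5 summed to 79.0 to 85.9 CPM under trastuzumab and 28.5 to 31.7 CPM in parental cells, nearly all of it CDH5, while the defining marker PECAM1 stayed between 0 and 0.224 CPM. Of the leukocyte markers, CD68 was at 40.9, 46.9 and 41.3 CPM under trastuzumab and 14.9, 13.2 and 16.2 CPM in parental cells, while PTPRC stayed between 0 and 0.310 CPM and CD3E between 0 and 0.110 CPM. The 5 fibroblast markers COL1A1, COL1A2, COL3A1, DCN and LUM summed to 5.84 to 9.74 CPM under trastuzumab and 8.87 to 18.8 CPM in parental cells.

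Replication genes shifted by small amounts and in both directions. With edgeR's quasi-likelihood test and Benjamini-Hochberg adjustment over all 17854 genes, 13 of the 50 were higher under trastuzumab at an adjusted p below 0.05, 19 were lower and 18 did not pass. The share called was 64.0%, read against 49.3% of all tested genes called in either direction, 23.9% called higher and 25.4% called lower. The 2 groups did not overlap in CPM for 32 of the 50 genes, against 57.5% of all tested genes, so the members separated the groups about as often as genes at large. Fitted changes (log2 of trastuzumab over parental) lay between -0.94 and 0.42, with a median of -0.10 beside -0.01 over all tested genes. Only ORC4, CDC7, MCM10 and POLA1, all lower, changed by more than 1.5-fold, which is 4 of 50 genes against 33.1% of all tested genes. Of all counts before scaling, the 50 genes took 0.475% to 0.488% in the trastuzumab libraries and 0.468% to 0.490% in the parental libraries. These ranges overlap. Summed in CPM, on scaled totals, they came to 4943, 4874 and 4877 under trastuzumab and 4713, 4563 and 4861 in parental cells. These sums did not overlap, with 4874 just above 4861. In bulk RNA, fewer cells in S phase and less RNA of a gene per cell cannot be told apart.

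Direction went with base composition. The 13 members called higher had a transcript GC content of 48.1% to 65.0% (median 57.0%), and the 19 called lower one of 37.7% to 50.7% (median 43.3%). Spearman's rho between GC content and log2 change was 0.773 across the 50 genes and 0.554 across the 13569 protein-coding genes tested with an annotated transcript, which describes these libraries, since genes in the same libraries are not independent replicates. The whole table was therefore also fitted with each library's dependence on GC content and exonic length removed (below, the corrected fit), which brought rho to 0.140 across the members and 0.036 across the protein-coding genes. In the corrected edgeR fit, 7 members were higher, 17 were lower and 26 did not pass. That is 48.0% called, beside 39.3% of 17649 genes called in either direction, 17.5% higher and 21.8% lower. Higher calls were 40.6% of all member calls in the uncorrected fit and 29.2% in the corrected fit. The same call was made in both fits for 5 higher members (MCM5, LIG1, FEN1, RPA2 and CHAF1B) and 13 lower ones, beside 28.1% of all genes in that fit, and 2 genes, MCM7 and TK1, were called higher without correction and lower with it. With correction for GC content alone, 6 of these 18 members (MCM5, LIG1, ORC6, DBF4, RFC4 and POLE2) did not pass. Both values are given below, because the source of the relation to GC content was not tested.

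**Figure D1:**
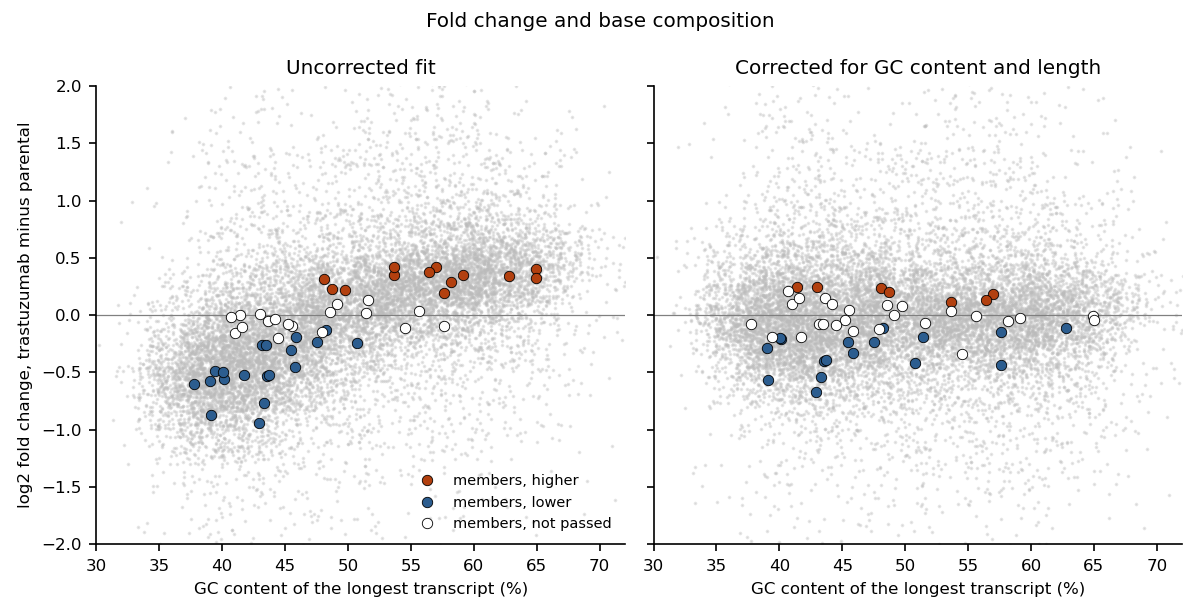
Log2 fold change of trastuzumab over parental against the GC content of each gene's longest transcript, before (left) and after (right) correction for GC content and length; grey points are protein-coding genes, those beyond 2 on the log2 axis in either direction are not drawn, and large points are the 50 replication genes coloured by call. Members called higher lie at 48.1% GC and above on the left, and on the right rho over the protein-coding genes is 0.036.

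**Figure D2:**
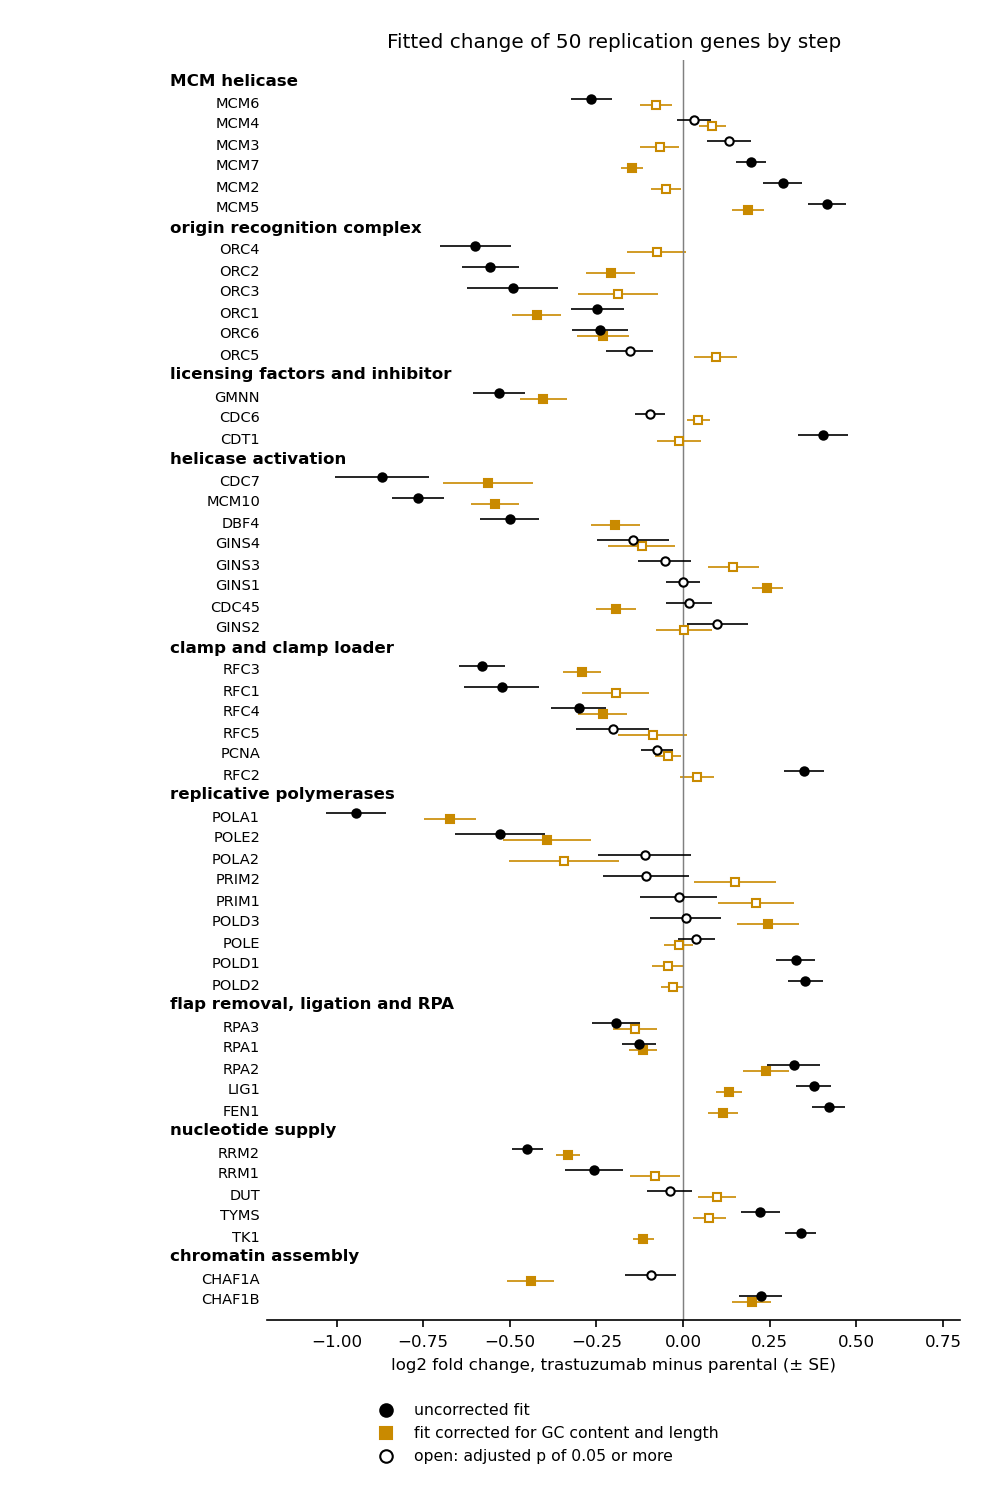
Fitted log2 fold change of each of the 50 replication genes with its standard error (SE), grouped by step, from the uncorrected fit (black circles) and the corrected fit (gold squares); open symbols did not pass an adjusted p of 0.05. The genes at the left edge, POLA1, CDC7 and MCM10, are lower in both fits, while the cluster near 0.3 to 0.4 mostly moves toward 0 with the correction.

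Promoters are shown for genes of 3 kinds of change, because members share transcriptional control in textbook accounts while their changes here diverged. RefSeq gives a promoter (250 bases before to 50 after the gene's start, GRCh38.p14) for 44 of the 50 genes, and none in the table used for MCM4, MCM5, GINS4, POLD3, RPA2 and RPA3. The E2F words TTTCCCGC, TTTGGCGC, TTTCGCGC and TTTGCCGC, sought on both strands with overlapping matches merged, occurred in 18 of the 44 promoters (40.9%), against 908 of 27305 promoters of the same length (3.33%). The 27305 promoters were not matched to the members for base composition, here or for the other words counted below. MCM7, higher in the uncorrected fit and lower in the corrected one, has 2 E2F words and LIG1, higher in both, has 1. CDC6, which did not pass in either fit, has 1, POLA1, the member that fell most, has 1, and MCM10, also lower in both fits, has none of these words. Only these exact words were sought, so unmarked stretches, also in MCM10, may hold an E2F site of another form. The regions are chr7:100101348-100101647 for MCM7 and chr19:48170295-48170594 for LIG1, both on the minus strand, and chr17:40287629-40287928 for CDC6, chrX:24693668-24693967 for POLA1 and chr10:13161308-13161607 for MCM10, on the plus strand. Each is written 5′ to 3′ along the gene, with E2F words in capitals.
MCM7: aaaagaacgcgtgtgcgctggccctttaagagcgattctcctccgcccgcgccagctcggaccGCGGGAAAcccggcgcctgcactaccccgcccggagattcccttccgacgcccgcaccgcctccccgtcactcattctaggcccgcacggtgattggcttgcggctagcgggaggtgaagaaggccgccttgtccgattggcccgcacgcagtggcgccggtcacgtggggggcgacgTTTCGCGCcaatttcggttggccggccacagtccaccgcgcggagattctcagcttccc
LIG1: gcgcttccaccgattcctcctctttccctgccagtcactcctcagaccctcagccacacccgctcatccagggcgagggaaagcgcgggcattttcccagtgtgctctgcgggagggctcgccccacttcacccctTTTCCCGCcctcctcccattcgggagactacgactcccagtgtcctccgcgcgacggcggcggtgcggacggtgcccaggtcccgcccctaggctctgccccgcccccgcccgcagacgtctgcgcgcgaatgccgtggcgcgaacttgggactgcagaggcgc
CDC6: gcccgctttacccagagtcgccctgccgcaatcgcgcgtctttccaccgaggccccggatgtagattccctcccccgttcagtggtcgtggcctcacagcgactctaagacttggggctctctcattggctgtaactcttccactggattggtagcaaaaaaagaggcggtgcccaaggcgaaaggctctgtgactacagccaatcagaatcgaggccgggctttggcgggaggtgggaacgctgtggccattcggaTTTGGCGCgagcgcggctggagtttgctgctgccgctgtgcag
POLA1: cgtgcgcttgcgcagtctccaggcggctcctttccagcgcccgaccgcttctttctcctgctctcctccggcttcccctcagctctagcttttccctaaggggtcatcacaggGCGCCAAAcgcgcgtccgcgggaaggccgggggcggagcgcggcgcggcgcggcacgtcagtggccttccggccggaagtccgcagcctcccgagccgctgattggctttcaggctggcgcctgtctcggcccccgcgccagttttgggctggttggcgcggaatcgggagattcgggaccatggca
MCM10: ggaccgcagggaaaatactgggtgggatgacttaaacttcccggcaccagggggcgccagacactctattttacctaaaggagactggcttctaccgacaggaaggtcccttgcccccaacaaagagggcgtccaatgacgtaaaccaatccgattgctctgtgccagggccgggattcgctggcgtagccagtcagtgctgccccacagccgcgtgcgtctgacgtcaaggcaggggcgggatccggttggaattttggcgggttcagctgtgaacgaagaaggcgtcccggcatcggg

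The 18 promoters held 21 separate E2F matches, 2 each in MCM3, MCM6 and MCM7. Of the 21 matches, 13 began within the 100 bases before the start and 3 after it. An E2F word was present in 5 of 11 promoters of genes called higher, 5 of 18 of genes called lower and 8 of 15 of genes that did not pass, in the uncorrected fit. After correction the counts were 2 of 4, 4 of 17 and 12 of 23. CCAAT, the word bound by the factor NF-Y, was found in 23 of 44 member promoters (52.3%) and 35.7% of all promoters, and TTTGAA, the cell cycle homology element of many mitotic genes, in 2 of 44 (4.55%) and 15.4% of all promoters. By call in the uncorrected fit, CCAAT was present in 2 of 11 higher, 11 of 18 lower and 10 of 15 promoters of genes that did not pass. In the corrected fit it was present in 1 of 4, 10 of 17 and 12 of 23. A match is a string of letters and not an observed binding site, and the counts by call were not tested.

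**Figure D3:**
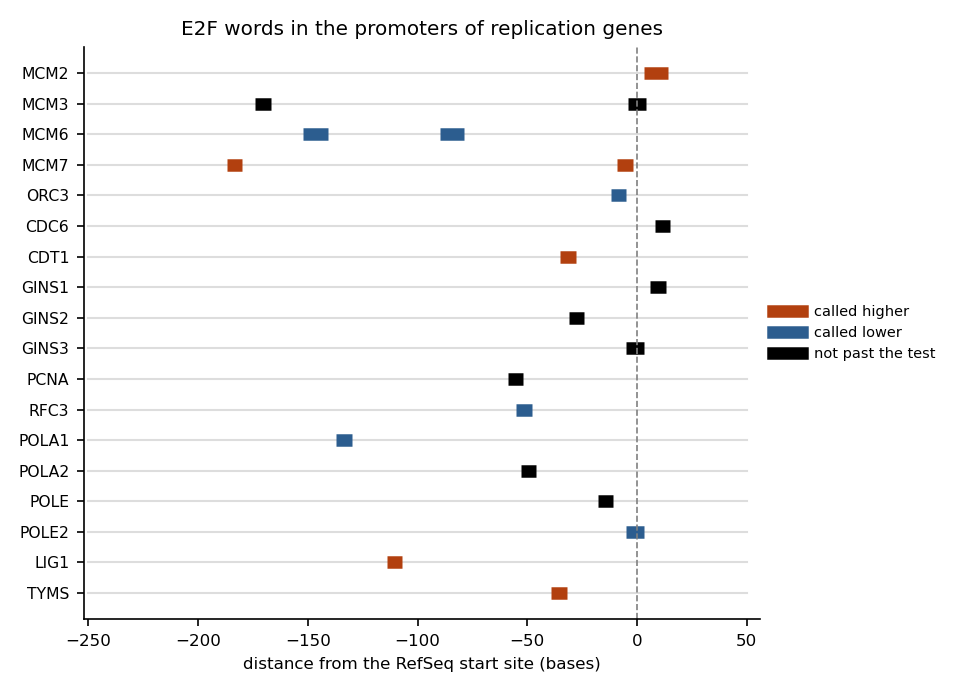
Positions of E2F words in the 18 member promoters that hold one, as distance in bases from the RefSeq start site, coloured by the call of the gene in the uncorrected fit; each block runs from the first to the last base of a match. Blocks of all 3 colours lie close to the start.

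Among the 6 subunits of the MCM helicase, the ring that unwinds DNA ahead of the fork, 3 rose, 1 fell and 2 did not pass in the uncorrected fit, and 1 rose and 1 fell after correction. These are 66.7% called, beside 49.3% of all tested genes, and 33.3% after correction, beside 39.3%. MCM5 stood at 111, 118 and 113 CPM under trastuzumab and 86.6, 79.6 and 90.0 CPM in parental cells, with every trastuzumab library above every parental one. Its log2 change was 0.42 ± 0.054 (SE; edgeR adjusted p = 7.69e-06) and 0.19 ± 0.046 after correction (edgeR adjusted p = 0.00388), the only MCM rise called in both of these fits. MCM2 was at 100.4, 106 and 104 CPM under trastuzumab and 82.8, 79.8 and 91.7 CPM in parental cells, again without overlap. That rise of 0.29 ± 0.057 (edgeR adjusted p = 0.000436) became -0.050 ± 0.044 after correction, which did not pass (edgeR adjusted p = 0.413). MCM7 gave 451, 448 and 448 CPM under trastuzumab and 383, 382 and 411 CPM in parental cells, a small separation between tight groups. Its change was 0.20 ± 0.043 (edgeR adjusted p = 0.00104), and the call turned to lower after correction, at -0.15 ± 0.032 (edgeR adjusted p = 0.0013).

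MCM6 was the subunit that fell without correction, with 67.2, 63.1 and 66.4 CPM under trastuzumab and 84.8, 74.4 and 77.2 CPM in parental cells. All 3 trastuzumab libraries lay below the parental ones, a log2 change of -0.27 ± 0.059 (edgeR adjusted p = 0.00117), and the corrected change of -0.078 ± 0.046 did not pass (edgeR adjusted p = 0.206). MCM3 measured 89.5, 81.9 and 86.9 CPM under trastuzumab and 75.4, 73.6 and 86.8 CPM in parental cells, and MCM4 276, 247 and 266 CPM under trastuzumab and 258, 249 and 265 CPM in parental cells. The groups of MCM3 and MCM4 overlapped, and neither gene passed (edgeR adjusted p = 0.1 and 0.655). Per length the subunits were not equal. In the deposited FPKM (counts scaled for gene length and library size), MCM7 was highest at 87.9 ± 0.495 under trastuzumab and 80.5 ± 2.55 in parental cells (SD, n = 3 each). MCM4 followed at 32.4 ± 1.90 FPKM under trastuzumab and 33.2 ± 0.764 FPKM in parental cells. MCM3 (20.3 ± 0.940 FPKM under trastuzumab, 19.4 ± 1.57 FPKM in parental cells) and MCM2 (18.8 ± 0.469 FPKM under trastuzumab, 16.2 ± 1.02 FPKM in parental cells) came next, although MCM6 overlapped both of them in parental cells. MCM6 and MCM5 overlapped under trastuzumab, at 13.6 ± 0.482 and 13.5 ± 0.361 FPKM, while in parental cells MCM6 lay clear of MCM5, at 17.2 ± 1.25 against 10.6 ± 0.588 FPKM. The length that the authors used for each gene is not given in the sources used here.

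**Figure D4:**
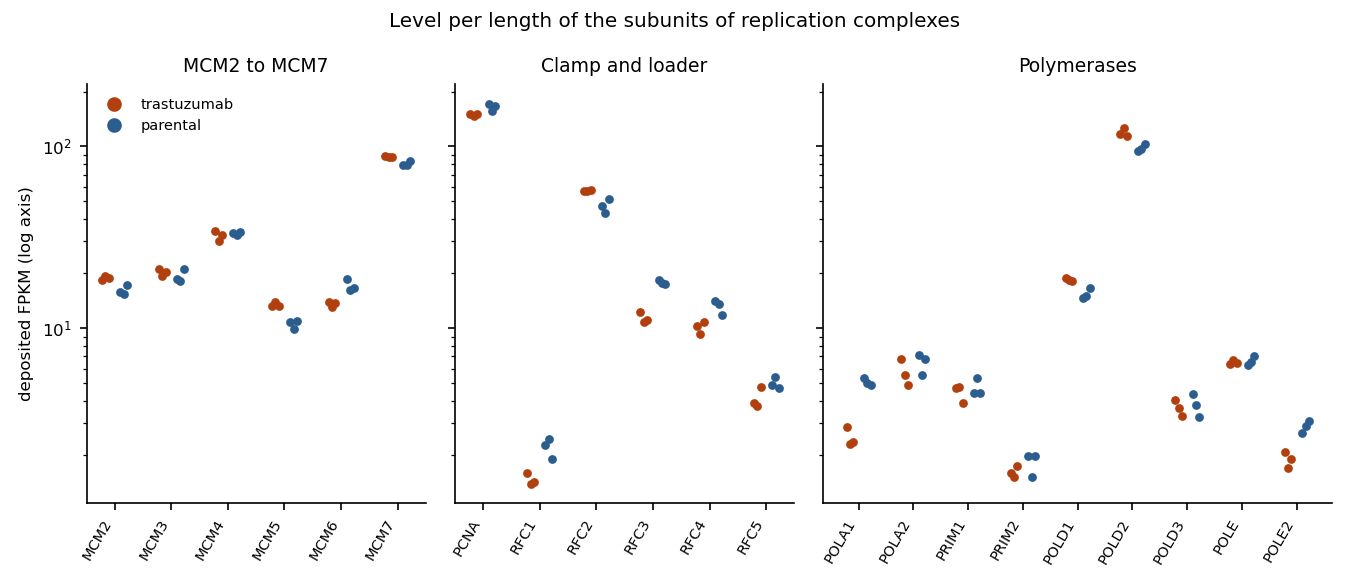
Deposited FPKM (log axis) of each library for the MCM helicase, the clamp and its loader, and the replicative polymerases; trastuzumab points are left of parental points for each gene. Subunits of the same complex spread widely, from MCM5 near 10 to 14 FPKM to MCM7 near 79 to 88 FPKM in the helicase.

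In the origin recognition complex, which marks origins and loads the helicase, 5 of 6 subunits fell and none rose in the uncorrected fit. After correction 3 were lower (ORC1, ORC2 and ORC6), and the median of the 6 changes moved to -0.20, beside -0.37 without correction. Over all genes, 25.4% were called lower in the uncorrected fit and 21.8% in the corrected one. The 6 transcripts had a median GC content of 40.6%, beside 45.9% over the 50 members. ORC4 was at 15.4, 14.2 and 13.9 CPM under trastuzumab and 25.5, 20.6 and 19.8 CPM in parental cells, and ORC2 at 17.2, 17.0 and 17.5 CPM under trastuzumab and 27.3, 24.9 and 23.6 CPM in parental cells. Neither gene showed any overlap between groups. ORC4 fell by 1.52-fold (log2 -0.60 ± 0.10; edgeR adjusted p = 0.000116), but its corrected change of -0.077 ± 0.084 did not pass (edgeR adjusted p = 0.529). ORC2 was also lower, with a log2 change of -0.56 ± 0.083 (edgeR adjusted p = 2.92e-05) and remained lower after correction, at -0.21 ± 0.070 (edgeR adjusted p = 0.0266).

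ORC3 had 7.41, 7.13 and 7.44 CPM under trastuzumab and 12.2, 9.64 and 9.10 CPM in parental cells, a low level at which all 3 trastuzumab libraries lay below the parental ones. Its log2 change of -0.49 ± 0.13 passed (edgeR adjusted p = 0.00479) and the corrected one of -0.19 ± 0.12 did not (edgeR adjusted p = 0.231). ORC1, the subunit whose level is known to follow the cell cycle, fell, with a log2 change of -0.25 ± 0.076 (edgeR adjusted p = 0.012) and a larger one of -0.42 ± 0.070 after correction (edgeR adjusted p = 0.000146). ORC6, also known for a role outside origins in cell division, fell too, with changes of -0.24 ± 0.081 and -0.23 ± 0.075 after correction (edgeR adjusted p = 0.0214 and 0.0212), although its groups overlapped. The uncorrected call of ORC6 was lost when any of 4 libraries was left out, trastuzumab replicate 2 or 3 or parental replicate 1 or 3, while the call of ORC1 was lost without trastuzumab replicate 2. ORC5 had a log2 change of -0.15 ± 0.068 and did not pass (edgeR adjusted p = 0.0735). Per length the complex was unequal too. ORC1 measured 8.24 ± 0.594 FPKM under trastuzumab and 10.3 ± 0.436 FPKM in parental cells, whereas ORC4 measured 1.39 ± 0.0794 FPKM under trastuzumab and 2.21 ± 0.323 FPKM in parental cells (SD, n = 3 each).

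The loading factor CDT1 and its inhibitor geminin, encoded by GMNN, moved apart. CDT1 gave 45.1, 47.8 and 43.0 CPM under trastuzumab and 34.3, 32.0 and 36.4 CPM in parental cells, a rise of 0.40 ± 0.073 on the log2 scale (edgeR adjusted p = 0.000187). GMNN gave 25.7, 22.2 and 22.9 CPM under trastuzumab and 33.9, 34.3 and 34.0 CPM in parental cells, a log2 change of -0.53 ± 0.076 (edgeR adjusted p = 2.04e-05). No library of 1 group reached into the range of the other for either gene. After correction CDT1, at 64.9% one of the most GC-rich transcripts of the set, did not pass (-0.011 ± 0.064; edgeR adjusted p = 0.919), while GMNN remained lower (-0.40 ± 0.068; edgeR adjusted p = 0.000172). The ratio of CDT1 to GMNN within each library, a pair chosen after its values were seen and so given without a test, was 1.76, 2.16 and 1.88 under trastuzumab and 1.01, 0.933 and 1.07 in parental cells. With corrected values the ratio was 1.52, 1.71 and 1.56 under trastuzumab and 1.32, 1.11 and 1.21 in parental cells, closer but still without overlap. The absolute size of this ratio depends on the lengths of both transcripts. CDC6, the ATPase that loads the helicase with CDT1, was at 433, 413 and 423 CPM under trastuzumab and 468, 434 and 455 CPM in parental cells. The highest trastuzumab library lay just under the lowest parental one, and the change of -0.096 ± 0.043 did not pass (edgeR adjusted p = 0.0771).

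Of the 8 genes that turn the loaded helicase into an active one, 3 fell and 5 did not pass in the uncorrected fit. That is 37.5% called, beside 49.3% of all tested genes. After correction 4 were lower and 1 was higher, or 62.5% called, beside 39.3% of all genes in that fit. The 3 that fell without correction were the kinase CDC7, its activating partner DBF4, and MCM10, which helps the helicase to start and stays with the fork. CDC7 had 5.14, 4.77 and 6.22 CPM under trastuzumab and 10.2, 9.91 and 9.34 CPM in parental cells. DBF4 had 24.8, 22.5 and 22.4 CPM under trastuzumab and 36.4, 29.8 and 32.3 CPM in parental cells. MCM10 (chromosome 10, 13161554 to 13211104, plus strand, in GENCODE 29 on hg38) had 24.2, 22.1 and 21.8 CPM under trastuzumab and 39.4, 36.4 and 40.1 CPM in parental cells. All 3 genes were lower in every trastuzumab library than in any parental one. CDC7 fell by 1.83-fold (log2 -0.87 ± 0.14; edgeR adjusted p = 5.03e-05) and MCM10 by 1.70-fold (log2 -0.77 ± 0.075; edgeR adjusted p = 3.54e-07). Their corrected changes were -0.56 ± 0.13 and -0.54 ± 0.068 (edgeR adjusted p = 0.00228 and 9.15e-06). DBF4 was lower too, with log2 changes of -0.50 ± 0.085 (edgeR adjusted p = 0.000108) and -0.20 ± 0.071 after correction (edgeR adjusted p = 0.0372).

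CDC45 and the GINS genes, which join the helicase as it is activated, did not pass without correction. In the uncorrected fit the log2 change was 0.017 ± 0.067 for CDC45, -0.00040 ± 0.049 for GINS1, 0.099 ± 0.088 for GINS2, -0.053 ± 0.077 for GINS3 and -0.14 ± 0.10 for GINS4, with edgeR adjusted p between 0.279 and 0.996. The groups of all 5 overlapped. After correction CDC45 was lower (-0.19 ± 0.058; edgeR adjusted p = 0.0143) and GINS1 was higher (0.24 ± 0.045; edgeR adjusted p = 0.0004).

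**Figure D5:**
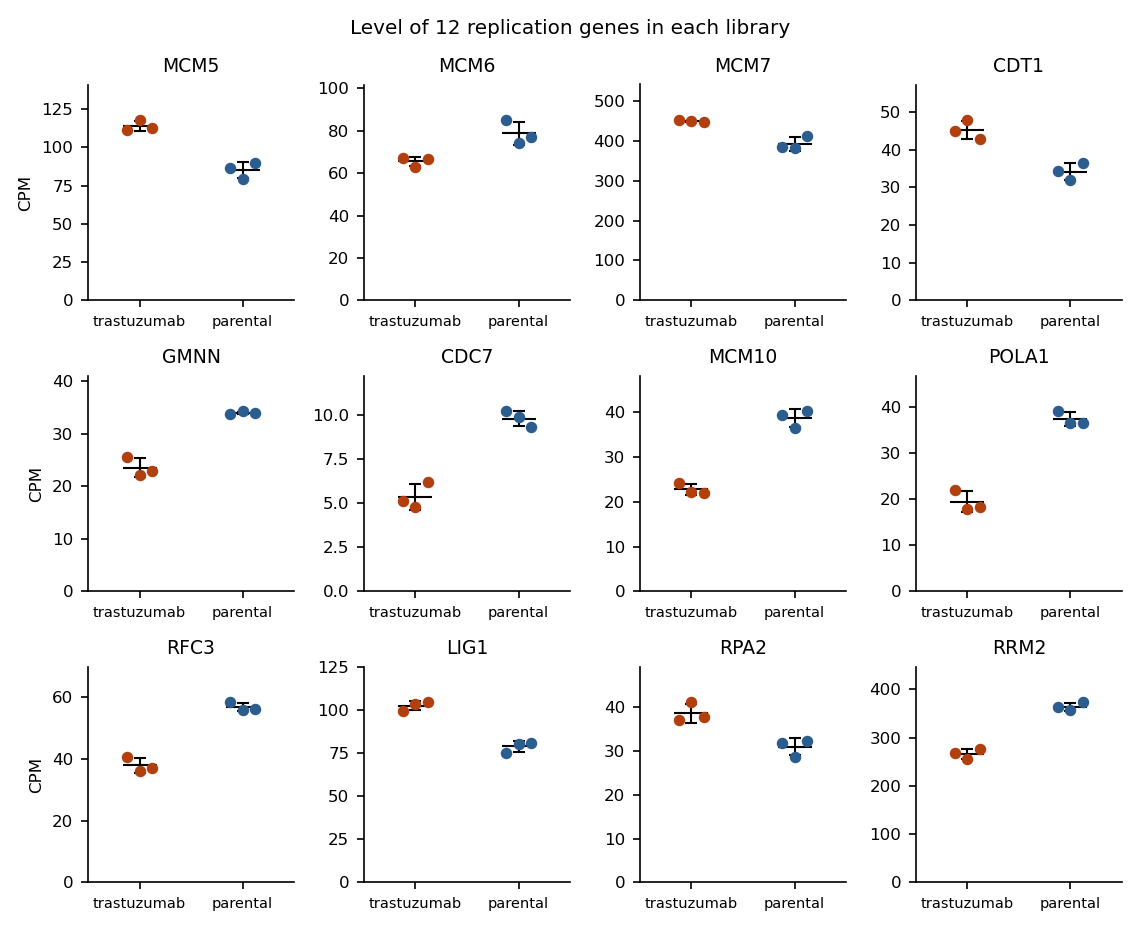
CPM of 12 replication genes in each library, trastuzumab left of parental; points are libraries, the horizontal mark is the mean and the bar its SD (n = 3 each). The groups are apart in all 12 panels, with POLA1 at 17.9 to 22.1 CPM under trastuzumab and 36.5 to 39.0 CPM in parental cells. All 12 genes shown are among the 32 of 50 members without overlap, so this separation follows from the choice of genes. Over all tested genes, 57.5% did not overlap.

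PCNA, the sliding clamp that tethers the polymerases, was at 244 ± 3.44 CPM under trastuzumab and 257 ± 12.3 CPM in parental cells (SD, n = 3 each), and its log2 change of -0.076 ± 0.046 did not pass (edgeR adjusted p = 0.194). The 5 subunits of its loader, replication factor C, were divided, with 3 lower, 1 higher and 1 not passing in the uncorrected fit, which called 49.3% of all tested genes. RFC3 stood at 40.7, 36.2 and 37.2 CPM under trastuzumab and 58.4, 55.8 and 56.4 CPM in parental cells. RFC1, the large subunit, stood at 12.5, 11.0 and 11.3 CPM under trastuzumab and 17.0, 18.4 and 14.5 CPM in parental cells. RFC2 stood at 145, 147 and 149 CPM under trastuzumab and 114, 106 and 127 CPM in parental cells. RFC1 and RFC3 were lower in every trastuzumab library, and RFC2 was higher in every one. The log2 change of RFC3 was -0.58 ± 0.066 (edgeR adjusted p = 1.62e-06) and -0.29 ± 0.055 after correction (edgeR adjusted p = 0.000443). Those of RFC1 and RFC2 were -0.52 ± 0.11 (edgeR adjusted p = 0.000663) and 0.35 ± 0.059 (edgeR adjusted p = 0.000104), and neither gene passed after correction, at -0.19 ± 0.097 and 0.039 ± 0.048 (edgeR adjusted p = 0.13 and 0.578). RFC4 changed by -0.30 ± 0.079 and by -0.23 ± 0.070 after correction, lower in both fits (edgeR adjusted p = 0.00421 and 0.0148), and the change of RFC5, -0.20 ± 0.11, did not pass (edgeR adjusted p = 0.127).

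POLA1, the catalytic subunit of polymerase alpha that extends the RNA primer, fell more than any other of the 50 genes. It lies on chromosome X, 24693919 to 24996986, plus strand (GENCODE 29 on hg38). Its levels were 22.1, 17.9 and 18.3 CPM under trastuzumab and 39.0, 36.5 and 36.6 CPM in parental cells, so the lowest parental library was well above the highest trastuzumab one. The fall was 1.92-fold (log2 -0.94 ± 0.086; edgeR adjusted p = 1.62e-07), and -0.67 ± 0.074 on the log2 scale after correction (edgeR adjusted p = 2.48e-06). Its partners did not pass in either fit, although the primase gene PRIM1 overlaps NACA on the same strand, where reads may not be told apart. POLA2, the accessory subunit, had a log2 change of -0.11 ± 0.13 (edgeR adjusted p = 0.55), the primase PRIM1 one of -0.013 ± 0.11 (edgeR adjusted p = 0.937) and the large primase subunit PRIM2 one of -0.11 ± 0.12 (edgeR adjusted p = 0.527). In deposited FPKM, POLA1 was 2.51 ± 0.307 under trastuzumab and 5.07 ± 0.229 in parental cells, and POLA2 5.72 ± 0.953 under trastuzumab and 6.48 ± 0.848 in parental cells (SD, n = 3 each).

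Polymerase delta extends the lagging strand. Of its 3 genes among the 50, POLD1 and POLD2 were higher without correction and POLD3 did not pass. POLD2, a regulatory subunit, was at 502, 543 and 492 CPM under trastuzumab and 382, 396 and 426 CPM in parental cells. POLD1, the catalytic subunit, was at 108, 106 and 105 CPM under trastuzumab and 80.2, 81.9 and 92.3 CPM in parental cells. The groups were apart for both, with rises of 0.35 ± 0.050 and 0.32 ± 0.057 (edgeR adjusted p = 1.94e-05 and 0.00014), which became -0.030 ± 0.033 and -0.044 ± 0.045 after correction and did not pass (edgeR adjusted p = 0.524 and 0.497). POLD3 had a log2 change of 0.0070 ± 0.10 (edgeR adjusted p = 0.965) and of 0.25 ± 0.089 after correction, when it was called higher (edgeR adjusted p = 0.0396). The small subunit POLD4, outside the 50 genes and named after its values were seen, was at 16.9, 17.2 and 16.7 CPM under trastuzumab and 11.6, 13.2 and 9.82 CPM in parental cells. It rose by 0.56 ± 0.11 (edgeR adjusted p = 0.000452), and its corrected change of 0.16 ± 0.11 did not pass (edgeR adjusted p = 0.298). Of polymerase epsilon, which extends the leading strand, the second subunit POLE2 measured 7.25, 5.95 and 6.62 CPM under trastuzumab and 8.72, 9.52 and 10.3 CPM in parental cells. It was lower in every trastuzumab library, with a log2 change of -0.53 ± 0.13 (edgeR adjusted p = 0.00269) and -0.39 ± 0.13 after correction (edgeR adjusted p = 0.0207). The catalytic subunit POLE had a log2 change of 0.038 ± 0.054 and did not pass (edgeR adjusted p = 0.609). Of the 9 polymerase and primase genes, 44.4% were called, beside 49.3% of all tested genes, and 33.3% after correction, beside 39.3%. They held the largest fall of the set and 2 rises that did not pass after correction, with a median uncorrected change of -0.01.

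The enzymes that join lagging strand fragments were higher in both fits. FEN1, the nuclease that removes flaps, had 183, 172 and 174 CPM under trastuzumab and 135, 127 and 132 CPM in parental cells. LIG1, the ligase that seals the nick, had 99.2, 103 and 104 CPM under trastuzumab and 75.0, 80.4 and 80.9 CPM in parental cells. No library of either group lay within the range of the other for either gene. FEN1 rose by 0.42 ± 0.047 (edgeR adjusted p = 1.52e-06) and by 0.12 ± 0.043 after correction (edgeR adjusted p = 0.0436), and LIG1 by 0.38 ± 0.051 (edgeR adjusted p = 1.16e-05) and by 0.13 ± 0.039 after correction (edgeR adjusted p = 0.0119). FEN1 overlaps FADS2 on the same strand and TMEM258 on the other. Where FEN1 and FADS2 overlap, strand cannot separate their reads. For TMEM258 this depends on the strand setting of the count, which is not given.

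The single-strand binding complex RPA, which coats unwound DNA, was split. RPA2 had 37.1, 41.1 and 37.7 CPM under trastuzumab and 31.8, 28.7 and 32.4 CPM in parental cells, with the groups apart, and rose by 0.32 ± 0.075 (edgeR adjusted p = 0.00192) and by 0.24 ± 0.066 after correction (edgeR adjusted p = 0.00816). The other subunits were lower by small margins in the uncorrected fit. RPA1 changed by -0.13 ± 0.049 (edgeR adjusted p = 0.0398) and RPA3 by -0.19 ± 0.070 (edgeR adjusted p = 0.0292). After correction RPA1 remained lower (-0.12 ± 0.040; edgeR adjusted p = 0.0292) and RPA3 did not pass (-0.14 ± 0.063; edgeR adjusted p = 0.0984). The call of RPA1 was lost whichever of the 6 libraries was left out, and that of RPA3 without trastuzumab replicate 2 or 3 or parental replicate 3.

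Among the genes for nucleotide supply, the subunits of ribonucleotide reductase fell in the uncorrected fit, TK1 and TYMS rose, and DUT did not pass. RRM2, the subunit whose level limits the enzyme in S phase, was at 267, 256 and 276 CPM under trastuzumab and 363, 357 and 373 CPM in parental cells. It was lower in each trastuzumab library, with a log2 change of -0.45 ± 0.044 (edgeR adjusted p = 3.3e-07) and -0.33 ± 0.035 after correction (edgeR adjusted p = 1.46e-06). RRM1, the large subunit, was at 92.7, 75.1 and 76.2 CPM under trastuzumab and 105, 94.5 and 91.8 CPM in parental cells. Trastuzumab replicate 1 lay within the parental range. RRM1 changed by -0.26 ± 0.083 (edgeR adjusted p = 0.0225), a call lost without trastuzumab replicate 2 or 3 or parental replicate 1, and its corrected change of -0.082 ± 0.072 did not pass (edgeR adjusted p = 0.432).

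TK1, the thymidine kinase of the salvage pathway, had the highest FPKM of the 50 genes in both groups, at 239.7 ± 5.87 under trastuzumab and 199 ± 7.51 in parental cells (SD, n = 3 each). Its counts gave 507, 530.5 and 508 CPM under trastuzumab and 389, 404 and 428 CPM in parental cells, all 3 trastuzumab libraries above all parental ones. The rise of 0.34 ± 0.045 (edgeR adjusted p = 8.73e-06) turned to -0.11 ± 0.029 after correction, called lower (edgeR adjusted p = 0.00507), in a transcript of 62.8% GC. TYMS, thymidylate synthase, rose by 0.22 ± 0.056 (edgeR adjusted p = 0.00325) and did not pass after correction (0.075 ± 0.048; edgeR adjusted p = 0.244). DUT, which clears dUTP, had a log2 change of -0.039 ± 0.064 and did not pass (edgeR adjusted p = 0.666). The ratio of RRM2 to TYMS within each library, again chosen after its values were seen and not tested, was 2.37, 2.32 and 2.48 under trastuzumab and 3.71, 4.07 and 3.67 in parental cells. Corrected values gave 2.56, 2.61 and 2.69 under trastuzumab and 3.33, 3.68 and 3.43 in parental cells, without overlap.

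The subunits of chromatin assembly factor 1, which places histones on new DNA, differed from each other. CHAF1B, the middle subunit, was at 75.9, 78.8 and 77.3 CPM under trastuzumab and 67.8, 59.6 and 71.3 CPM in parental cells, and CHAF1A, the large subunit, at 41.2, 36.6 and 42.2 CPM under trastuzumab and 40.0, 43.2 and 44.8 CPM in parental cells. The groups were apart for CHAF1B and overlapped for CHAF1A. The CHAF1B gene overlaps MORC3 on the same strand, where reads may not be told apart. CHAF1B rose by 0.22 ± 0.063 (edgeR adjusted p = 0.00708) and by 0.20 ± 0.057 after correction (edgeR adjusted p = 0.0109), but the uncorrected call was lost without parental replicate 2 and in each of the 3 fits to FPKM. CHAF1A did not pass (-0.094 ± 0.074; edgeR adjusted p = 0.33), and after correction it was lower (-0.44 ± 0.068; edgeR adjusted p = 7.88e-05).

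Of 29 other fork and origin factors, 5 rose, 15 fell and 9 did not pass, and after correction 3 were higher and 13 lower. Calls were made for 69.0% of them, beside 49.3% of all tested genes, and for 55.2% after correction, beside 39.3%. Their median change was -0.24, and -0.11 after correction. ATAD5, which unloads PCNA, was at 3.87, 2.91 and 2.81 CPM under trastuzumab and 6.67, 6.56 and 6.22 CPM in parental cells (log2 -1.02 ± 0.17; edgeR adjusted p = 8.07e-05). TOPBP1, which brings CDC45 to origins, was at 29.5, 22.9 and 28.0 CPM under trastuzumab and 51.9, 49.1 and 42.5 CPM in parental cells (log2 -0.83 ± 0.099; edgeR adjusted p = 5.73e-06). POLE4, a small subunit of polymerase epsilon, went the other way, with 35.1, 38.6 and 33.4 CPM under trastuzumab and 20.8, 19.1 and 21.9 CPM in parental cells (log2 0.80 ± 0.081; edgeR adjusted p = 5.41e-07). The groups were apart for these 3 genes and each kept its direction and call after correction, at -0.55 ± 0.16, -0.52 ± 0.080 and 0.58 ± 0.070 (edgeR adjusted p = 0.011, 8.4e-05 and 6.02e-06). So polymerase epsilon held a lower subunit, POLE2, and a higher one, POLE4, in both fits.

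Upstream of these genes, 6 of 23 regulators of the passage from G1 to S rose, 13 fell and 4 did not pass, and after correction 1 was higher and 12 lower. Calls covered 82.6% of this list, beside 49.3% of all tested genes, and 56.5% after correction, beside 39.3%. RB1, which restrains E2F, was at 24.9, 21.1 and 22.8 CPM under trastuzumab and 39.8, 38.7 and 36.1 CPM in parental cells, a log2 change of -0.74 ± 0.079 (edgeR adjusted p = 9.24e-07). CDKN1A, the p21 inhibitor of cyclin-dependent kinases, was low, at 2.67, 3.59 and 4.24 CPM under trastuzumab and 6.64, 7.10 and 5.86 CPM in parental cells. Its log2 change was -0.90 ± 0.18 (edgeR adjusted p = 0.000509). E2F5, a repressive E2F, was also low, at 2.34, 1.61 and 1.98 CPM under trastuzumab and 3.26, 4.54 and 4.91 CPM in parental cells. The log2 change of E2F5 was -1.10 ± 0.22 (edgeR adjusted p = 0.000474). Trastuzumab libraries lay below parental ones throughout for all 3 genes, and after correction all remained lower, at -0.28 ± 0.064 for RB1, -1.29 ± 0.18 for CDKN1A and -0.71 ± 0.22 for E2F5 (edgeR adjusted p = 0.00199, 2.87e-05 and 0.0181).

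Of 23 genes of mitosis, which follows S phase, none rose, 18 fell and 5 did not pass, and after correction 21 were lower and none higher, with median changes of -0.50 and -0.42. The share called was 78.3%, beside 49.3% of all tested genes, and 91.3% after correction, beside 39.3%. CENPE, a kinetochore motor, was at 5.68, 5.16 and 5.65 CPM under trastuzumab and 16.3, 13.0 and 13.2 CPM in parental cells (log2 -1.37 ± 0.12; edgeR adjusted p = 1.56e-07). CENPF, another kinetochore protein, was at 42.3, 37.3 and 39.8 CPM under trastuzumab and 101, 93.2 and 85.1 CPM in parental cells (log2 -1.22 ± 0.069; edgeR adjusted p = 7.39e-10). MKI67, the proliferation marker Ki-67, was at 110.0, 98.6 and 104 CPM under trastuzumab and 225, 221 and 229 CPM in parental cells (log2 -1.11 ± 0.049; edgeR adjusted p = 5.74e-11). The groups were far apart for all 3 genes, and the corrected changes were -0.77 ± 0.11, -0.75 ± 0.048 and -0.92 ± 0.039 (edgeR adjusted p = 2.98e-05, 5.56e-09 and 6.11e-11). The difference between these genes and the replication genes was not tested.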

How the data were processed

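RNA-seq of 6 SKBR3 libraries was used, 3 trastuzumab and 3 parental. Each library was a directional NEBNext Ultra II library from 1 µg of RNeasy-purified total RNA, per the labels' protocols. The submitters' processing notes name STAR 2.4.2a and hg38. No counting program, strand setting, annotation or filter is named, and these were not given in the sources used here. The authors deposited raw counts per gene and FPKM for 33686 of the 60612 genes. Symbols came from a reference table of Ensembl identifiers, promoters from RefSeq, and positions, exonic lengths and GC content of the longest transcript from GENCODE 29. Among the 50 members, 19 share positions with a second tested gene, 7 (MCM7, RFC3, POLA2, PRIM1, POLD3, FEN1 and CHAF1B) in the same orientation.

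The fit used edgeR 4.0.16 (R 4.3.3) with TMM factors, filterByExpr and the robust quasi-likelihood F test without covariates, and Benjamini-Hochberg adjusted p below 0.05 over 17854 genes as a call. CPM used TMM-scaled totals. SE is the log2 change divided by the square root of F. The corrected fit, over 17649 genes with an annotated transcript, used offsets from a 5-df spline of each library on GC content and log length. Alternatives were other size factors, filters, DESeq2 1.42.0, limma 3.58.1 (voom, and log2 FPKM with pseudocounts of 1 and 0.1, from at least 1 FPKM in 3 libraries), correction for GC content alone, a replicate block and leaving out each library. No 2 libraries of a group had counts that agreed within sampling noise.

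Members and lists were chosen with earlier results of these data known. Values per library are given for the 3 members of each step with the largest fitted change, for called members whose direction reversed after correction, for MCM2 to MCM7, and for up to 3 called genes of each other list with the largest change. A further leukocyte marker is not reported here.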

Additional observations from a re-analysis of the deposited data

How the results depend on the processing

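Of the 32 called members, 26 kept their call in all 6 fits that left out a library, 26 under all 10 other scalings, filters, tools and FPKM values, and 12 in all 3 corrected fits (GC content and length; GC content alone; replicate block with GC content and length). Only 9 kept their call in all of these fits. With GC content and length corrected, 7 members were higher and 17 lower (18 lower with the block), and with GC content alone 9 were higher and 12 lower. In the order of those 3 fits, the medians were -0.059, -0.017 and -0.058 for the MCM helicase and -0.20, -0.17 and -0.20 for the origin recognition complex. They were -0.011, 0.012 and -0.0097 for licensing factors, 0.12, 0.074 and 0.12 for flap removal, ligation and RPA, and -0.12, -0.10 and -0.12 for chromatin assembly. Helicase activation moved to -0.16 in both fits with length, and the clamp and its loader to -0.082 with GC content alone. In the same order, changes that reversed were -0.050, -0.047 and -0.048 for MCM2, -0.15, -0.13 and -0.15 for MCM7, 0.24, 0.32 and 0.24 for GINS1, -0.044, -0.064 and -0.044 for POLD1, -0.11, -0.044 and -0.11 for TK1 and 0.12, 0.018 and 0.12 for RBBP4. In the 2 fits with length, CDT1 came to -0.011 and -0.0097, CDC45 to -0.19 in both, and POLD2 to -0.030 and -0.031. Under GC content alone ORC5 came to 0.18, PRIM1 to 0.33, POLE to -0.25 and DUT to 0.17. Other settings moved medians too. Licensing factors came to -0.044 with upper quartile factors, -0.15 with library totals and -0.16, -0.17 and -0.16 with log2(FPKM + 1), log2(FPKM + 0.1) and no filter. Helicase activation came to -0.046 with upper quartile factors, -0.15 with library totals and -0.16 with log2(FPKM + 0.1), where the median of all members was -0.16. Flap removal, ligation and RPA came to 0.23 with log2(FPKM + 1), filtered or not. Of the other lists together, 22 genes rose, but 11 with unfiltered FPKM, 11 with GC content and length corrected (also with the block) and 9 with GC content alone. Same-numbered libraries hardly deviated together (r = -0.0056, 0.051 and 0.049), and pairs of unlike number lay between -0.055 and 0.0048. Trastuzumab replicates 2 and 3 correlated best with their own number, but replicate 1 did not. The replicate block changed no member call. The causes of these shifts were not tested. With 3 libraries a group, small changes such as that of RPA1 lie at the limit of what the spread allows to be called.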

Other observations

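Of 23 other genes of nucleotide synthesis, 10 rose, 8 fell and 5 did not pass, and after correction for GC content and length 5 were higher and 6 lower. That is 78.3% called, beside 49.3% of all tested genes, and 47.8% after correction, beside 39.3%. The list has a median change of 0.04, and 0.02 after correction, beside -0.01 and -0.04 over all tested genes. The largest falls called were in purine synthesis. PAICS, a bifunctional enzyme of the de novo purine pathway, was at 149, 125 and 141 CPM under trastuzumab and 271, 241 and 238 CPM in parental cells (log2 -0.85 ± 0.068; edgeR adjusted p = 3.12e-07). PPAT, which takes the first committed step of that pathway, was at 21.6, 21.1 and 19.7 CPM under trastuzumab and 39.2, 36.5 and 36.3 CPM in parental cells (log2 -0.85 ± 0.074; edgeR adjusted p = 1.02e-07). The groups were apart for both, and both remained lower after correction, at -0.52 ± 0.046 and -0.34 ± 0.064 (edgeR adjusted p = 4.11e-07 and 0.000491). RRM2B, the p53-responsive ribonucleotide reductase subunit, was at 8.19, 9.57 and 8.24 CPM under trastuzumab and 14.8, 13.0 and 12.7 CPM in parental cells (log2 -0.64 ± 0.11; edgeR adjusted p = 0.000174), and did not pass after correction (-0.19 ± 0.11; edgeR adjusted p = 0.176). CAD, which starts pyrimidine synthesis, was chosen after its values were seen and went the other way, with 142, 147 and 149.9 CPM under trastuzumab and 99.4, 112 and 120.4 CPM in parental cells (log2 0.40 ± 0.061; edgeR adjusted p = 3.99e-05) and a corrected change of 0.20 ± 0.044 (edgeR adjusted p = 0.00182).

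Of 6 histone chaperones and histone supply factors for new chromatin, 1 rose, 4 fell and 1 did not pass, and after correction 2 were higher and 4 lower. Over all tested genes, 49.3% were called without correction and 39.3% with it. ASF1A, which hands histones to chromatin assembly factor 1, was at 13.4, 12.2 and 13.6 CPM under trastuzumab and 22.2, 18.6 and 21.4 CPM in parental cells, a log2 change of -0.67 ± 0.096 (edgeR adjusted p = 2.01e-05) and of -0.27 ± 0.087 after correction (edgeR adjusted p = 0.0199). HAT1, which acetylates new histone H4, was at 27.5, 28.8 and 25.6 CPM under trastuzumab and 46.0, 38.4 and 38.0 CPM in parental cells, a log2 change of -0.58 ± 0.085 (edgeR adjusted p = 2.38e-05) and of -0.22 ± 0.074 after correction (edgeR adjusted p = 0.0278). RBBP4, the third subunit of chromatin assembly factor 1, was at 88.6, 85.0 and 90.6 CPM under trastuzumab and 107, 108 and 108 CPM in parental cells. It was called lower without correction, at -0.29 ± 0.048 (edgeR adjusted p = 9.11e-05), and higher with it, at 0.12 ± 0.041 (edgeR adjusted p = 0.0322).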
